A study of Mus musculus with 2 samples.

Results

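Thyroid hormone receptors, transport and targets were examined through 9 genes: the receptor genes Thra and Thrb, the membrane transporter gene Slc16a10, the plasma carrier gene Ttr, the deiodinase genes Dio1 and Dio2, and the hormone-responsive genes Thrsp, Me1 and Klf9. They were taken by symbol from a deposited table of 54532 genes. The table gives 1 RNA sequencing library for each of 2 groups of male ApoE-/- mice on the C57BL/6J strain, 6 weeks old at the start. The cells were macrophages sorted for F4/80 and CD11b from digested aorta, and cells of 5 mice were pooled into each library. The Phlegm-Dampness Retention (PDR) group had a high-fat diet for 4 weeks and no propylthiouracil. The Spleen and Kidney Yang Deficiency (SKYD) group was gavaged with propylthiouracil at 10 mg/kg per day for 4 weeks, and then had high-fat food for 2 weeks, so the drug had ended before the cells were taken. Syndrome model, drug, time on the diet and age differ together between the groups and cannot be told apart. With 1 pooled library per group no spread between mice can be measured, and no test or p-value is given.

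Propylthiouracil lowers thyroid hormone by blocking its synthesis in the thyroid, and it also blocks the type 1 deiodinase. The thyroid releases mainly thyroxine, which travels in plasma on carrier proteins, enters cells through membrane transporters and is converted by deiodinases to the more active triiodothyronine. Triiodothyronine binds nuclear receptors that sit on DNA with a retinoid X receptor partner, and the bound hormone replaces corepressors with coactivators. The liver is a main target, where the hormone raises genes of fat synthesis, and macrophages can also respond to it.

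Values are FPKM, which are reads scaled for the length of the gene and the size of the library. The reads behind them could be recovered as whole numbers, 23086889 on genes for PDR and 25427863 for SKYD. Differences are log2(FPKM + 1) in PDR minus that in SKYD, a scale that understates the change of low genes. Each has an exact (Clopper-Pearson) 95% interval on how the reads split between the libraries, which covers counting error only. Ratios are of FPKM with nothing added.

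Both libraries held RNA of macrophages and of other cells. Reads were found for all 8 macrophage markers, and their summed FPKM was 22836 in PDR and 42857 in SKYD. Lyz2, a lysozyme gene, made up most of both sums, at 22217 in PDR and 41336 in SKYD. Of the 8 markers, 6 were higher in SKYD and 2 in PDR. Those 2 were Csf1r, at 57.7 in PDR and 44.9 in SKYD, and Fcgr1, at 51.9 and 35.3. Adgre1, which encodes the sorted F4/80 antigen, had an FPKM of 87.3 in PDR and 93.3 in SKYD. Itgam, which encodes CD11b, had 8.84 and 14.4. Apoe, the gene named as deleted in all mice, gave 17336 reads in PDR and 3618 in SKYD. The table counts whole genes and does not show where in Apoe those reads lie, so it does not check the genotype. In pooled cells, fewer cells of a type and less RNA per cell cannot be told apart.

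The 9 genes fell into 3 groups. Thra, Thrb, Slc16a10 and Dio2 had few reads or none, and lay below the level at which genes were compared. Ttr, Thrsp, Dio1 and Me1 had a higher FPKM in PDR, as did most hepatocyte markers. Klf9 had a higher FPKM in SKYD, as did most genes that glucocorticoid raises. Genes were compared where the mean FPKM of both libraries was 1 or more, which 5 of the 9 genes reached. Among those, Ttr and Thrsp were over 2-fold higher in PDR, where 7.38% of all 10399 compared genes were. Klf9 was over 2-fold higher in SKYD, where 6.91% of compared genes were. In either direction the share of compared genes was 14.3%. The median difference over the 5 genes was 0.90, beside -0.0035 over all 10399, and with no filter on level it was 0.09 over all 9 genes.

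**Figure D1:**
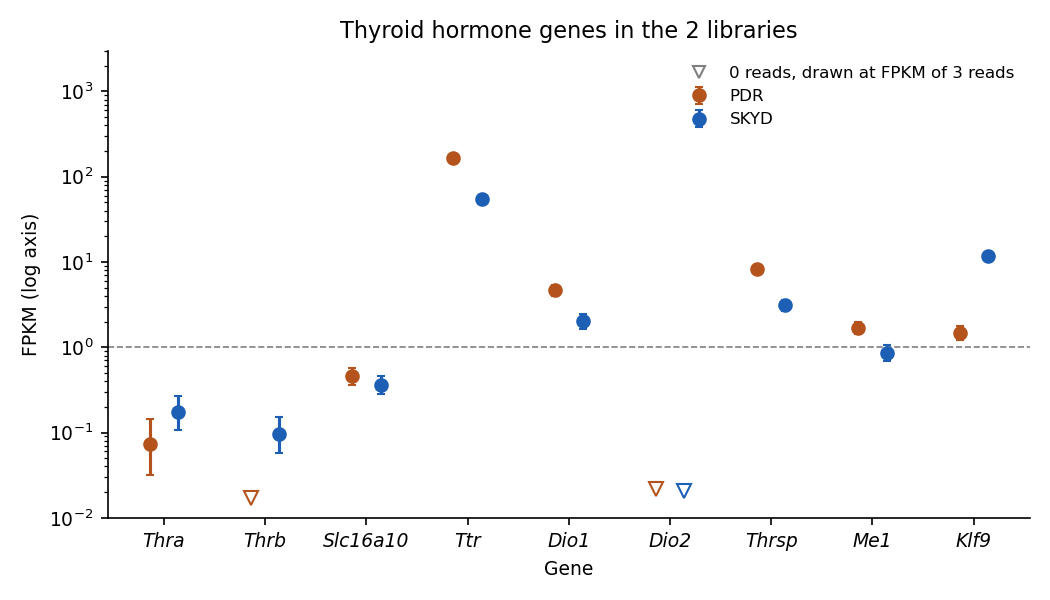
FPKM (log axis) of the 9 thyroid hormone genes in the PDR and SKYD libraries, 1 pooled library each, with exact 95% Poisson intervals of the reads. Open triangles stand for 0 reads and are drawn at the FPKM of 3 reads, and the dashed line marks an FPKM of 1. Ttr lies highest in both libraries, and Klf9 is the compared gene that lies higher in SKYD.

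Thra encodes the thyroid hormone receptor alpha and lies on chromosome 11, from 98740638 to 98769006 on the plus strand. It had 8 reads in PDR and 20 in SKYD, or an FPKM of 0.0738 and 0.173. Its FPKM ratio, SKYD over PDR, was 2.35 with an interval of 0.991 to 6.17, so a difference was not detectable at this depth. Its last 1075 bases overlap the end of Nr1d1, a circadian repressor gene on the other strand. Exons of both genes share 263 bases, 5.70% of the exon length of Thra. Nr1d1 had 33 reads in PDR and 68 in SKYD. Whether reads were counted by strand is not given in the sources used here, so reads of that stretch cannot be assigned to either gene with certainty.

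Thrb encodes the receptor beta, the main form in liver, and spans 17660261 to 18038090 on the plus strand of chromosome 14. It had 0 reads in PDR and 18 in SKYD, where its FPKM was 0.0973. A count of 0 allows up to 3 reads, which for Thrb in PDR is an FPKM of 0.0173. Against that floor Thrb was 5.64-fold higher in SKYD, with no allowance for counting error in the 18 reads. An antisense gene inside its span, Gm48321, had the same pattern, with 0 reads in PDR and 62 in SKYD. The exons of Thrb and Gm48321 share 0 bases. The other 2 genes within the span of Thrb, the pseudogene Gm48320 and Gm24140, had 0 reads in both libraries.

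Both receptor genes had a low FPKM, and were ranked among nuclear receptors. By FPKM, Thra ranked 28 of 49 nuclear receptor genes in PDR, where 33 had reads, and 23 in SKYD, where 36 did. Thrb ranked 28 in SKYD, and was among the receptors with 0 reads in PDR. The most abundant nuclear receptors were Nr1h2 and Nr1h3, the oxysterol-sensing liver X receptors of macrophages. Nr1h2 had an FPKM of 16.3 in PDR and 15.7 in SKYD. Nr1h3 had 13.2 and 14.3. Of the 49 genes, 14 could be compared, with a median difference of -0.07. Nr0b2, a corepressor abundant in liver, was over 2-fold higher in PDR, with an FPKM of 4.93 and 1.02.

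Of the 3 retinoid X receptor genes that encode partners, Rxrb and Rxra had a higher FPKM than Thra and Thrb in both libraries. Rxrb, a retinoid X receptor, had an FPKM of 8.75 in PDR and 9.91 in SKYD, a difference of -0.16 (-0.29 to -0.04). Rxra had 1.04 and 2.0, a difference of -0.55 (-0.72 to -0.38). Neither passed 2-fold, while both intervals lie on the side of SKYD. Rxrg had 13 reads in PDR and 9 in SKYD, an FPKM of 0.241 and 0.157, the latter below that of Thra.

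Coregulators that the receptors use differed by less than 2-fold wherever they could be compared. Of 12 genes, 7 could be compared, with 0 over 2-fold in either direction, where 14.3% of all compared genes were. Over so few genes, a count of 0 does not set coregulators apart from other genes. The median difference of the 7 was 0.10, and its direction was not steady. It was -0.049 with no filter on level and -0.082 with a filter at a mean FPKM of 5. Gps2, a subunit of the corepressor complex, was the most abundant at 33.6 in PDR and 38.6 in SKYD. Ncor1, the corepressor itself, had an FPKM of 2.46 and 3.40, a difference of -0.35 (-0.45 to -0.25). Med1, a coactivator subunit that contacts the bound receptor, had 2.34 and 1.28, a difference of 0.55 (0.42 to 0.68). Both differences are larger than counting error and under 2-fold. Crebbp, a coactivator below the filter, had 80 reads in PDR and 252 in SKYD, an FPKM ratio, SKYD over PDR, of 2.96 (2.29 to 3.86).

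Slc16a10 encodes a transporter of aromatic amino acids that also carries thyroid hormone. It lies on the minus strand of chromosome 10, from 40033532 to 40142258. It had 79 reads in PDR and 67 in SKYD, an FPKM of 0.457 and 0.364. Its difference of 0.09 has an interval of -0.05 to 0.23, so the libraries could not be told apart.

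Hormone transporters divided by where they are known to work. Of 9 genes, Slc16a10 included, 5 could be compared, with 1 over 2-fold higher in PDR, 0 in SKYD and a median difference of 0.20. That median was 0.66 after rescaling to TPM and 0.85 with a filter at a mean FPKM of 5. Slc3a2 and Slc7a5 form an amino acid exchanger found on most dividing cells. Slc3a2 had an FPKM of 46.2 in PDR and 40.0 in SKYD, and Slc7a5 had 2.64 and 2.61. Slc10a1, the bile acid carrier of hepatocytes, had 8.73 and 2.47, a difference of 1.49 (1.27 to 1.70). Slco1b2, another hepatocyte carrier, had 2.81 and 1.01, a difference of 0.92 (0.75 to 1.09). These transporters of hepatocytes had the largest differences of the 5 compared. Slco1a1, also of liver, had 148 reads in PDR and 20 in SKYD. Slco1c1, the thyroxine carrier of brain vessels, had 0 reads in both.

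Ttr encodes transthyretin, a plasma carrier of thyroxine and of retinol-binding protein made mainly by hepatocytes and the choroid plexus. It spans 20665250 to 20674324 on the plus strand of chromosome 18. Ttr had 4793 reads in PDR and 1662 in SKYD, an FPKM of 167 and 54.6. These levels placed it at rank 396 of 13311 protein-coding genes with reads in PDR, and at rank 1107 of 14847 in SKYD. The ratio, PDR over SKYD, was 3.07 (2.90 to 3.25), and the difference was 1.60 (1.52 to 1.68). Albumin, which binds thyroxine loosely, had the same direction. Alb had an FPKM of 258 in PDR and 72.8 in SKYD, a difference of 1.81. Serpina7, thyroxine-binding globulin, had 31 reads in PDR and 11 in SKYD.

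Dio1 encodes the type 1 deiodinase, a selenoenzyme of liver, kidney and thyroid, and spans 107291465 to 107307169 on the minus strand of chromosome 4. It had 215 reads in PDR and 100 in SKYD, an FPKM of 4.65 and 2.03. The ratio, PDR over SKYD, was 2.29 (1.80 to 2.93). On the log2(FPKM + 1) scale the difference was 0.90 (0.64 to 1.15), just short of 2-fold. It passed 2-fold with a pseudocount of 0.1, at 1.16, with a pseudocount of 0.01, at 1.19, and after rescaling to TPM, in which each library has the same total, at 1.01. Dio2, the deiodinase that makes triiodothyronine inside many cells, spans 90724552 to 90738438 on the minus strand of chromosome 12. It had 0 reads in both libraries, which allows an FPKM of up to 0.022 in PDR and 0.0206 in SKYD. Gm26512, a noncoding gene that overlaps its start on the other strand, had 0 reads in PDR and 9 in SKYD.

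The compared genes of hormone processing other than Dio1 were higher in SKYD. Sult1a1, a sulfotransferase of phenols and iodothyronines, had an FPKM of 58.1 in PDR and 164 in SKYD, a difference of -1.48 (-1.55 to -1.41). Secisbp2, which is needed to insert selenocysteine into deiodinases, had 1.91 and 3.29, a difference of -0.56 (-0.73 to -0.39). Of the 7 genes of this group 3 could be compared, with 0 over 2-fold higher in PDR and 1 in SKYD, and their median was -0.56. Rescaled to TPM, where more genes pass the filter, that median was 0.19, and with a filter at a mean FPKM of 5 it was -1.48. Crym, a binding protein for triiodothyronine in the cytosol, had 0 reads in PDR and 53 in SKYD. Against the floor of 3 reads that is 16.6-fold higher in SKYD, with no allowance for counting error in the 53 reads. Ugt1a1, a glucuronidating enzyme of liver, had 56 reads in PDR and 10 in SKYD, the direction of Dio1. Dio3, which inactivates the hormone, had 0 reads and 1 read.

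Thrsp, called Spot 14, encodes a regulator of fatty acid synthesis and is a classic gene raised by triiodothyronine in liver and fat. It spans 97412938 to 97417730 on the minus strand of chromosome 7. It had 428 reads in PDR and 171 in SKYD, an FPKM of 8.32 and 3.13. The ratio, PDR over SKYD, was 2.66 (2.23 to 3.20). The difference was 1.18, and its interval of 0.97 to 1.38 reaches below 2-fold. Its relative Mid1ip1, which acts on the same pathway, had 13.4 and 15.2, a difference of -0.17 (-0.31 to -0.03).

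Me1 encodes cytosolic malic enzyme, which supplies NADPH for fat synthesis and is raised by the hormone in liver. It spans 86581371 to 86695953 on the minus strand of chromosome 9. It had 152 reads in PDR and 83 in SKYD, an FPKM of 1.68 and 0.863. The ratio was 1.95 (1.48 to 2.58) and the difference 0.53 (0.31 to 0.73). Me2, the mitochondrial enzyme, was far more abundant, with an FPKM of 47.1 in PDR and 34.1 in SKYD, a difference of 0.46 (0.37 to 0.54). Me3 had 0 reads in PDR and 19 in SKYD.

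Klf9 encodes a zinc finger repressor whose gene responds directly to triiodothyronine, and also to glucocorticoid. It spans 23141226 to 23166911 on the plus strand of chromosome 19. It had 114 reads in PDR and 956 in SKYD, an FPKM of 1.49 and 11.7. The ratio, SKYD over PDR, was 7.88 (6.48 to 9.66), and the difference was -2.35 (-2.53 to -2.17). By level it ranked 7726 among protein-coding genes in PDR and 3145 in SKYD. Its close relative Klf13 had the same direction, with an FPKM of 4.84 in PDR and 16.4 in SKYD, a difference of -1.57 (-1.66 to -1.48). Of the 15 genes in the families of Klf9, Thrsp, Me1 and Slc16a10, 9 could be compared, with 1 over 2-fold higher in PDR, 2 in SKYD and a median of -0.15.

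**Figure D2:**
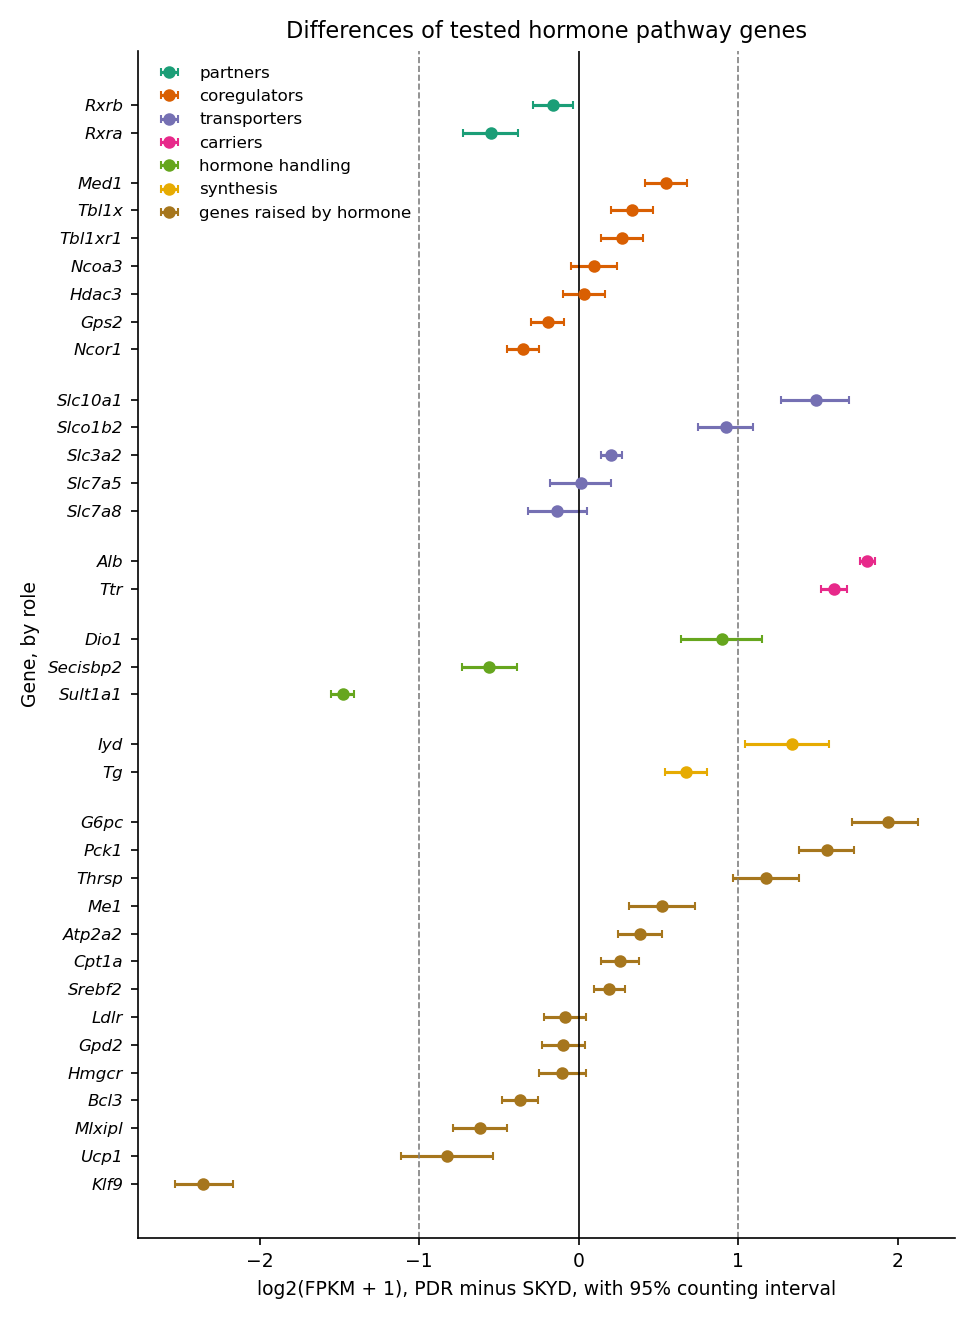
Difference in log2(FPKM + 1), PDR minus SKYD, of the compared genes of hormone action and synthesis, grouped by role, with 95% counting intervals. Dashed lines mark 2-fold. Coregulators lie within 2-fold, Ttr, Alb, Slc10a1, Iyd, G6pc, Pck1 and Thrsp lie beyond it towards PDR, and Sult1a1 and Klf9 lie beyond it towards SKYD.

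Genes known to be raised by thyroid hormone did not share a direction. Of 24 such genes, 15 could be compared, and 8 of the 15 were higher in PDR and 7 in SKYD. Over 2-fold higher in PDR were 3, Thrsp, Pck1 and G6pc, and over 2-fold higher in SKYD was 1, Klf9. The median difference was 0.19. Without Dio1, Klf9, Me1 and Thrsp, which are also on that list, it was -0.087 over 11 genes, and with no filter on level it was -0.038. Pck1 and G6pc encode enzymes of glucose production in liver and kidney. Pck1 had an FPKM of 8.64 in PDR and 2.28 in SKYD. G6pc had 4.18 and 0.349. The genes of this list with the highest mean FPKM over both libraries are widely expressed and differed less. Bcl3, a cofactor of NF-kappaB, had 17.1 and 22.4, a difference of -0.37 (-0.48 to -0.25). Cpt1a, which admits fatty acids to mitochondria, had 10.1 and 8.28, a difference of 0.26 (0.14 to 0.38). Ucp1, the uncoupling protein of brown fat, had 1.80 and 3.96, a difference of -0.83 (-1.11 to -0.53). Hr, a corepressor gene that responds to the hormone in brain and skin, had 4 reads in PDR and 36 in SKYD, below the filter.

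Ttr, Thrsp, Dio1 and Me1 had the direction of the hepatocyte markers. Of 18 such markers 17 could be compared, with 15 over 2-fold higher in PDR, 0 in SKYD and a median of 1.83. Their summed FPKM was 2784 in PDR and 886 in SKYD, Apoa2 was the most abundant, and 0 of them lacked reads. Trf, the transferrin gene, was the 1 compared marker higher in SKYD, at -0.50. As FPKM ratios on a log2 scale, the median marker was 1.84, and the 4 genes lay at 1.62 for Ttr, 1.41 for Thrsp, 1.19 for Dio1 and 0.96 for Me1. The ratio of Ttr was exceeded by 14 of the 18 markers, that of Thrsp by 16, and those of Dio1 and Me1 by 17. The 4 genes were thus higher in PDR by less than most hepatocyte markers were.

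The folds of these 4 genes were smaller than that of the hepatocyte marker sum. Counted per hepatocyte marker read instead of per library, they are therefore higher in SKYD by construction. This restates the folds, was computed after the values had been seen, and is no separate result. Markers of hepatocytes took 84982 reads in PDR and 26448 in SKYD. Per 1000 of those, Ttr had 56.4 reads in PDR and 62.8 in SKYD, a ratio of SKYD over PDR of 1.11 (1.05 to 1.18). Thrsp had 5.04 and 6.47, a ratio of 1.28 (1.07 to 1.54). Dio1 had 2.53 and 3.78, a ratio of 1.49 (1.17 to 1.90). Me1 had 1.79 and 3.14, a ratio of 1.75 (1.33 to 2.31). The intervals count only the reads of the gene itself and not the spread among markers. Of the 18 markers themselves, 8 had a ratio above 1 on this scale, among them Fabp1 at 1.39 and Apoa2 at 1.27. Trf had the highest ratio of the markers, above that of Me1, so the ratios of all 4 genes lie within the range of single markers. With Trf left out, Fabp1 is the highest marker. The ratios of Ttr and Thrsp then still lie within the range, and those of Dio1 and Me1 lie above it. The same factor applies to every gene, and on this scale Slc16a10 had a ratio of 2.73 and Klf9, already higher in SKYD per library, of 26.9. The part of hepatocyte RNA in the differences per library was not tested.

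**Figure D3:**
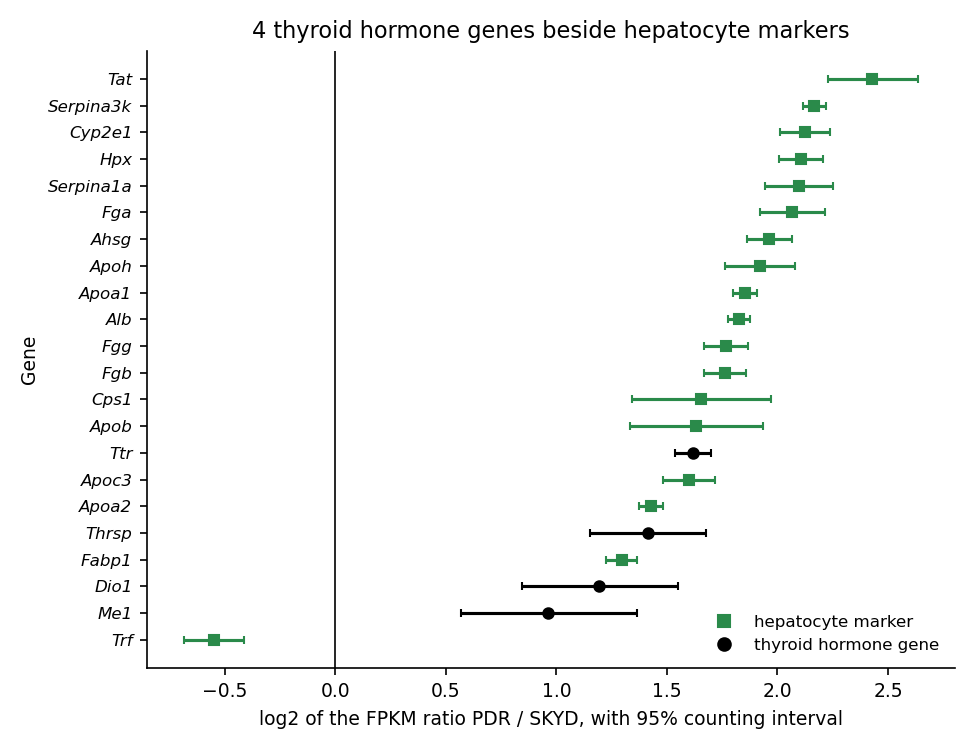
Log2 of the FPKM ratio, PDR over SKYD, of 18 hepatocyte markers (squares) and of Ttr, Thrsp, Dio1 and Me1 (circles), ordered by ratio, with 95% counting intervals. Dio1 and Me1 lie below every marker except Trf.

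Markers of other tissues known to express these genes were counted too, and no value here assigns the reads of the 4 genes to a cell type. For choroid plexus, which expresses Ttr, the 5 markers had 0 reads in PDR and 20 in SKYD, of which 19 were from Folr1, and Kcnj13, Kl and Otx2 had 0 in both. Kidney tubule, which expresses Dio1, had 27 reads over 6 markers in PDR and 69 in SKYD. Of these Lrp2, Kap, Umod and Slc12a1 had 0 in both. Adipocyte markers, from a tissue rich in Thrsp and Me1, summed to an FPKM of 4.14 in PDR and 9.43 in SKYD over 9 genes, led by Ucp1, with Lep at 0 in both. B cell markers were also higher in PDR, with 4 of 4 compared genes over 2-fold and a median of 2.49. Neutrophil markers had 3 of 5 over 2-fold higher in PDR and a median of 1.14, which was 0.77 with a filter at a mean FPKM of 5.

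Klf9 had the direction of genes raised by glucocorticoid. Of 9 such genes, Klf9 included, 7 could be compared, with 6 over 2-fold higher in SKYD, 0 in PDR and a median of -2.35, which is the value of Klf9 itself. Without Klf9, 5 of 6 were over 2-fold higher in SKYD and the median was -2.09. Fkbp5, a cochaperone of the glucocorticoid receptor, lay closest to Klf9 in both level and difference, with an FPKM of 1.25 in PDR and 12.6 in SKYD. Tsc22d3, the glucocorticoid-induced leucine zipper gene, had 55.9 and 170, a difference of -1.59. Mt1, a metallothionein gene that also responds to zinc, had 68.5 and 1296, a difference of -4.22. Sgk1 was the 1 compared gene of the list within 2-fold, at -0.30 (-0.40 to -0.20). Nr3c1, the glucocorticoid receptor gene, had 3.18 and 6.77, a difference of -0.89.

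T cell markers were also higher in SKYD, and Klf9 cannot be assigned to a cell type in these pooled cells. All 6 T cell markers were over 2-fold higher in SKYD, with a median of -2.38, a summed FPKM of 138 in PDR and 710 in SKYD, and Cd3d the most abundant. Both compared fibroblast markers were over 2-fold higher in SKYD, with a summed FPKM over the 5 markers of 10.3 in PDR and 42.5 in SKYD. Their median was -1.63, and -0.58 over all 5 with no filter. Platelet markers had a summed FPKM of 247 in PDR and 1469 in SKYD. Of the 3 compared, Pf4 was over 2-fold higher in SKYD, at -2.72, and the other 2 were higher in PDR by less than 2-fold. The median of the macrophage markers was -0.58, with 1 of 8, Cd14, over 2-fold higher in SKYD at -2.65. The part of these cells and of glucocorticoid-responsive genes in the level of Klf9 was not tested.

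**Figure D4:**
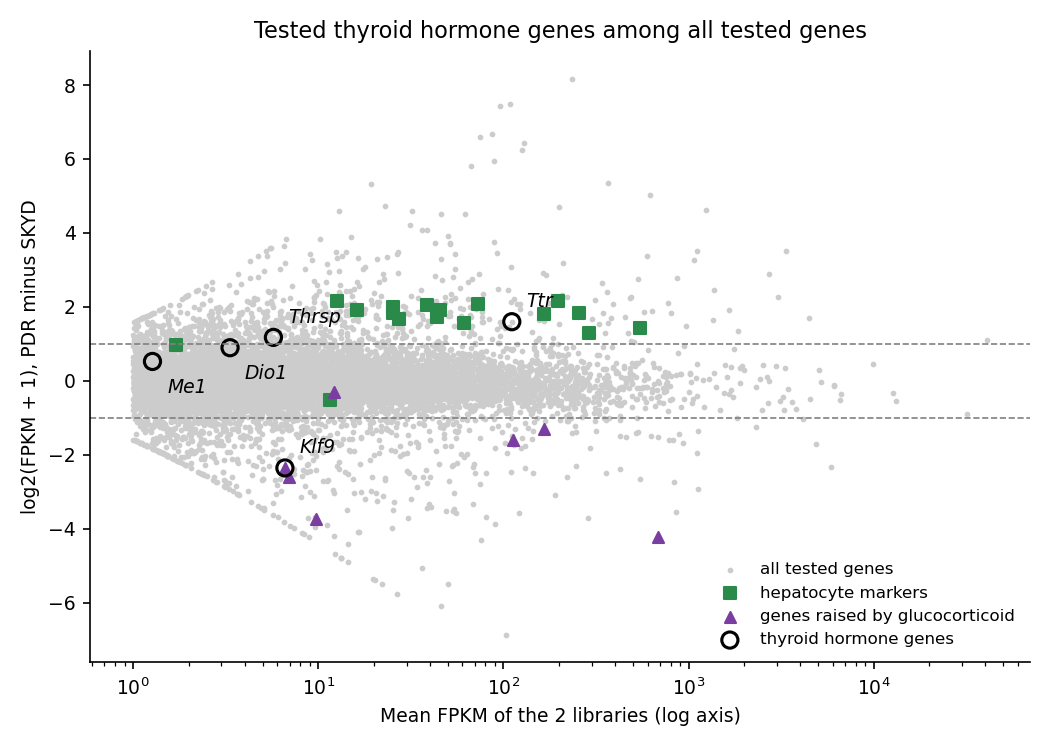
Difference in log2(FPKM + 1), PDR minus SKYD, against mean FPKM (log axis) for the 10399 compared genes. Circles mark the 5 compared thyroid hormone genes, squares the hepatocyte markers and triangles the genes raised by glucocorticoid. Ttr lies among the squares, Klf9 lies beside Fkbp5, and dashed lines mark 2-fold.

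The promoters of Klf9, higher in SKYD, and of Dio1, higher in PDR, are shown to compare what precedes their starts. RefSeq windows of GRCm38.p6 were matched by symbol for 7 of the 9 genes, giving 9 windows, each cut to the 250 bases before the RefSeq start. That start is not always the deposited one. The window of Thrsp lies inside the deposited gene over 180 bases, and both windows of Thrb lie inside it over all 250. Of the windows of Me1, the first lies inside the gene over 39 bases. The second lies inside it over all 250, with a RefSeq start 8676 bases downstream of the deposited one. The windows printed, 5′ to 3′ on the strand of the gene, overlap the deposited gene by 0 bases for Klf9 and 1 for Dio1. They are chr19:23140976-23141225 for Klf9 on the plus strand and chr4:107307169-107307418 for Dio1 on the minus strand. Capitals mark every match to the letters AGGTCA or GGGTCA (the core motif that receptors of this class bind), TGTTCT (the core of glucocorticoid receptor motifs), CCAAT or TATAAA, on either strand.
Klf9: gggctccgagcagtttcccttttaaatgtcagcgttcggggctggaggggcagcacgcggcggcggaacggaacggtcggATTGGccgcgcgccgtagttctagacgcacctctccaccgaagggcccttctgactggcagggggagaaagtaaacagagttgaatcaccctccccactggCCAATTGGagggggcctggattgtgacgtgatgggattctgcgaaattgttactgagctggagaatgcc
Dio1: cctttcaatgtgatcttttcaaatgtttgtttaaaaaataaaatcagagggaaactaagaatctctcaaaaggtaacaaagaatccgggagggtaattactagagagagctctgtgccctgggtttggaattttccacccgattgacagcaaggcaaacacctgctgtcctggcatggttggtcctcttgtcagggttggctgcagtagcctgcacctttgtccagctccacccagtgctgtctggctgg

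Of the 9 windows, 1 held AGGTCA, the first of Thrb, against 4607 of all 32851 windows. GGGTCA was in 1 window, of Me1, against 11.6% of all. A pair of cores in the spacing that the hormone receptor is known for, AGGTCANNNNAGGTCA, was in 0 of the 9 windows and in 5 of all. TGTTCT was in 1 window, the second of Thrb, against 16.1% of all, and TATAAA was in 2 windows, of Dio2 and Thrb, against 12.4%. CCAAT was in 4 windows, of Klf9, Thrsp, Me1 and Slc16a10, against 33.8% of all. For Me1 it was in the second window, which lies inside the gene. Thrsp had CCAAT on both strands, starting at -52 and -79 from the RefSeq start, and Klf9 had it on both strands at -69 and -66, where the matches overlap, and again at -170. Thus Klf9 and Thrsp, which differed in opposite directions, both had a CCAAT match, and Dio1 had none of these letters. A match is a description of letters in this window and does not show that a factor binds there.

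Genes of hormone synthesis, which belong to the thyroid, were mostly at 0. Of 11 such genes 8 had 0 reads in both libraries, among them Slc5a5, Tshr and Pax8, which define thyroid cells. Tg, which encodes thyroglobulin, nonetheless had 460 reads in PDR and 224 in SKYD, an FPKM of 2.20 and 1.01 and a difference of 0.67 (0.54 to 0.80). Iyd, the iodotyrosine deiodinase gene, which liver also expresses, had 87 and 12 reads, a difference of 1.34 (1.04 to 1.57). Both genes had the direction of Dio1, and Foxe1 had 0 reads in PDR and 2 in SKYD.

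The protein-coding gene nearest to each compared gene in both libraries, by Euclidean distance in log2(FPKM + 1), was Rnase6 for Ttr, Phf6 for Thrsp, Hbq1b for Dio1, AI182371 for Me1 and Tmem119 for Klf9. Rnase6 had an FPKM of 157 in PDR and 56.3 in SKYD, at a distance of 0.10 from Ttr. Tmem119 had 1.64 and 10.5, at a distance of 0.17 from Klf9. Over 2 libraries such likeness describes only these levels.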

How the data were processed

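RNA was sequenced from sorted aortic macrophages, 1 library for each of 2 groups, each pooled from 5 mice. The authors aligned reads with TopHat2 2.0.9 and Bowtie2 2.0.6, counted them with HTSeq 0.6.1, and deposited FPKM per gene with its length and position. The submitters' notes name the build mm9, but of 54409 genes shared with GENCODE vM21 (GRCm38), 98.3% have the same start and end, 7 of the 9 genes among them, and Klf9 and Ttr differ at their ends. Positions are given as deposited.

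FPKM times length gave whole reads for 100% of values above 0, within 0.01 of a read. The library sizes behind the deposited FPKM were 1.02 times the summed reads in PDR and 0.983 times in SKYD, with a product of 1. A count of 0 allows 3 reads. Differences are in log2(FPKM + 1) over genes whose mean FPKM reached 1, and 2-fold means a difference over 1. Intervals are at 95%. No p-value was computed. Intervals came from scipy 1.17.1 and tables from pandas 2.3.3 under Python 3.11.15, and the recovery of reads was tested on simulated data.

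The 9 genes and the gene lists were chosen with earlier results of these data known. Named genes were the 9 genes, the 3 most abundant, the 2 with the largest difference and all over 2-fold of each list, genes overlapping the 9 and the nearest gene to each of those compared. Other genes named, and genes under the filter, were chosen after their values were seen. Alternatives were other pseudocounts, filters, scalings and a 4-fold threshold. Some genes of the lists are not reported here.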

Additional observations from a re-analysis of the deposited data

How the results depend on the processing

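No paired analysis was possible because each group has 1 library, and for the same reason no library could be left out. A total of 257 values were recomputed, and 227 kept their direction and their side of 2-fold, or for counts lay within 1.5 times. Dio1, and with it the median of the 5 compared genes, passed 2-fold at 1.16 with a pseudocount of 0.1, at 1.19 with 0.01 and at 1.01 after rescaling to TPM, and that median was 1.18 over the genes left at a mean FPKM of at least 5, but 0.09 over all 9 genes with no filter. Genes over 2-fold numbered 464 in PDR and 373 in SKYD at that filter, 473 in SKYD for protein-coding genes only, and 194 and 216 at 4-fold, where 0 of the 9 genes were higher in PDR. Fewer genes pass these stricter settings by construction. The median of coregulators turned to -0.049 with no filter and -0.082 at a mean FPKM of at least 5. That of genes raised by the hormone turned to -0.038 with no filter and -0.087 without the genes also among the 9. That of hormone processing turned to 0.19 after rescaling to TPM and was -1.48 at a mean FPKM of at least 5. That of platelet markers, 0.20 over 3 compared genes, turned to -1.26 at a mean FPKM of at least 5. Ucp1, the 1 adipocyte marker that could be compared, passed 2-fold at -1.10 and -1.14 with pseudocounts of 0.1 and 0.01. The median over all 9 adipocyte markers with no filter was -0.071. Medians that no longer passed 2-fold were those of neutrophil markers, 0.77 at a mean FPKM of at least 5, and with no filter fibroblast markers, -0.58, and hormone synthesis, 0. Per hepatocyte marker read, added after seeing the data, Ttr was -0.16, Thrsp -0.36, Dio1 -0.58, Me1 -0.81 and Slc16a10 -1.45, which follows from a marker sum that differs more than these genes. That scaling moves every gene by the same factor, so it is no test of them. Its values are nonetheless counted among the 257. The cause of the other changes was not tested. Thra, Thrb, Dio2 and Slc16a10 are limited by depth, at under 100 reads in each library.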
